A study of Homo sapiens with 4 samples.

Results

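The transcripts of 10 genes of the AP-1 family were followed across 4 arrays, namely JUN, JUNB, JUND, FOS, FOSB, FOSL1, FOSL2, ATF3, ATF2 and BATF3. A spot was taken for a member when the RefSeq accession printed for it on the array belonged to that symbol, without regard to its values. This gave 15 probes for 9 of the 10 genes, out of 41000 non-control probes in all. JUND was not matched in this way and was not analysed here.

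AP-1 is a family of dimeric transcription factors that pair through a leucine zipper and bind DNA through the basic region beside it, which gives the family its name bZIP. JUN proteins can pair with each other, whereas FOS proteins need a JUN partner, and ATF2, ATF3 and BATF3 join JUN proteins in dimers with other site preferences. Several of the genes are immediate early genes, switched on by growth factors and stress without new protein synthesis, and carcinoma cells use AP-1 to drive genes of invasion, growth factors and inflammation.

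RNA came from OVSAYO, a human cell line from a clear cell carcinoma of the ovary. The cells had received either a negative control siRNA (NS-si) or a pool of siRNAs against Sp1 (Sp1-si), a zinc finger factor that binds GC boxes, and were then grown for 40 h. In the NS-si → CoCl2 and Sp1-si → CoCl2 groups they were further kept for 4 h in 0.5 mM CoCl2, a salt that mimics hypoxia by stabilising hypoxia-inducible factors. A legend of the study states that the other cells, called untreated below, were kept with a vehicle control for the same 4 h. It also states a shorter culture than the 40 h of the labels, and this difference could not be settled here. Each condition had 1 array, all 4 on 1 slide, so that no test was possible, no ratio had a replicate check and the number of arrays limited the precision. Errors given below are the SD between spots of a probe, or, where a probe has 1 spot, a median SD taken over 10-spot probes of similar brightness, and describe the array only.

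Spots well above background numbered 33081 to 34542 on an array, and none was saturated. The signal at the 75th percentile ranged from 977 in NS-si → CoCl2 to 1287 in Sp1-si → CoCl2 cells, and all ratios below were taken after scaling each array to that percentile. Both SP1 probes were low in the Sp1-si cells. The probe with 10 spots, A_23_P366312, read 553 in NS-si and 39.2 in untreated Sp1-si cells, and 429 and 38.7 in the same cells with CoCl2. The other, A_23_P53397, read 330, 20.4, 272 and 18.2 in that order. All 5 epithelial and all 5 clear cell carcinoma markers examined were well above background on every array, while PTPRC, PECAM1, CDH5 and PDGFRB, which define leukocytes, endothelium and stromal cells, were not on any. Within these lists the epithelial cadherin CDH1 read 39380 in NS-si cells and 12931 after Sp1 silencing, and the clear cell marker NAPSA read 5131 and 984, and the part of this in the AP-1 results was not tested. Of the leukocyte, endothelial and fibroblast lists, 3 of 4, 1 of 3 and 2 of 3 measured genes were above background on all arrays, with summed signals of 401 to 544, 43.6 to 61.8 and 367 to 799.

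Promoter sequence is shown for JUN and for 3 members that CoCl2 raised in both cell states, so that the letters Sp1 and AP-1 proteins are known to bind can be read beside the values. The windows hold the 250 bases before the transcription start in RefSeq (GRCh38.p14), 5′ to 3′ on the strand of the gene. Capitals mark the GC box (GGGCGG on either strand, the letters bound by Sp1) and the JUN-type site (TGACATCA on either strand, bound by dimers of JUN and ATF2). They are taken from chr1:58784048-58784297 (minus strand) for JUN, chr19:12791236-12791485 (plus) for JUNB, chr14:75278578-75278827 (plus) for FOS and chr1:212565157-212565406 (plus) for the first of the 2 ATF3 windows.
JUN: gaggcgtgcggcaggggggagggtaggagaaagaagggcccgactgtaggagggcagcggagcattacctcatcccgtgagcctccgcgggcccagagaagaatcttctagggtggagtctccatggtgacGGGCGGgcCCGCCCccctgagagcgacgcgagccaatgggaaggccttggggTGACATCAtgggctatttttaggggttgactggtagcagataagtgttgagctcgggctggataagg
JUNB: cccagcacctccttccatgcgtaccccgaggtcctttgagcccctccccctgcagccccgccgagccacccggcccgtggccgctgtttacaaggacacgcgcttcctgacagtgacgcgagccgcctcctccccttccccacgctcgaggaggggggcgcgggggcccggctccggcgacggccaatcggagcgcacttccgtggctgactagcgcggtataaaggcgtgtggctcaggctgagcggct
FOS: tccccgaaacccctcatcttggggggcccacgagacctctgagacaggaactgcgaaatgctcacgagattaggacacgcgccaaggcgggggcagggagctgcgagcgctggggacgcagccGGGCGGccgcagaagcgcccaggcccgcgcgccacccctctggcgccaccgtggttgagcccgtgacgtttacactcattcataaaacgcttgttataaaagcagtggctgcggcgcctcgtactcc
ATF3: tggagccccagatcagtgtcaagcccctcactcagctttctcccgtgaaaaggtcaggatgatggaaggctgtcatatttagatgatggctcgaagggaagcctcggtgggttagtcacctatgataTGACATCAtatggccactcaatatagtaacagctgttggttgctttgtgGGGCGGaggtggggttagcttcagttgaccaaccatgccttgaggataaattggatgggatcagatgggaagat

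In the JUN window the GC boxes start 119 and 111 bases before the start site, on opposite strands, and the JUN-type site starts at 67. The ATF3 window shown also holds both, with its GC box at 74 and its JUN-type site at 123, but the second ATF3 window holds neither. The arrays do not tell whether the measured ATF3 transcripts began at either of these starts or elsewhere. The FOS window holds 1 GC box at 127, and the JUNB window holds neither motif. A GC box was in 42.6% of 35116 windows of this length, a JUN-type site in 2.37%, and both together in 0.424%. The FOS, JUNB and FOSB windows have a TATA box (TATAAA on either strand) at 33, 31 and 30 bases, a motif found in 10.7% of all windows. The second ATF3 window has the same letters at 230. Among windows not printed, FOSB has 2 GC boxes, FOSL2 has 1, and JUND has 5 and a cAMP response element (TGACGTCA on either strand, 1.65% of windows). The classical AP-1 site (TGANTCA on either strand, 6.57% of windows) was in no window of a member, and the core of the hypoxia response element (ACGTG on either strand, 18.5% of windows) was found in that of FOSL2, 64 bases before the start. These are matches of letters and do not show binding.

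The study also examined the JUN promoter by chromatin immunoprecipitation. Its reverse primer, shown because it lies across the JUN-type site, matches the opposite strand from 66 to 43 bases before the start and shares 7 bases with that site, in capitals.
JUN reverse primer: cccctaaaaatagcccaTGATGTC

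JUN, the namesake of the family, was the member whose response to CoCl2 differed most between the cells. Its probe, A_23_P201538, has 10 spots on each array. The mean signal was 5141 in NS-si and 6267 in untreated Sp1-si cells, and 18796 and 6371 in the same cells with CoCl2. The NS-si → CoCl2 array stood alone, since its lowest spot, at 18285, was above the highest spot of any other array, at 6634. The remaining arrays lay close together, with spots from 5004 to 5282 in NS-si cells and from 6087 to 6488 after Sp1 silencing.

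**Figure D1:**
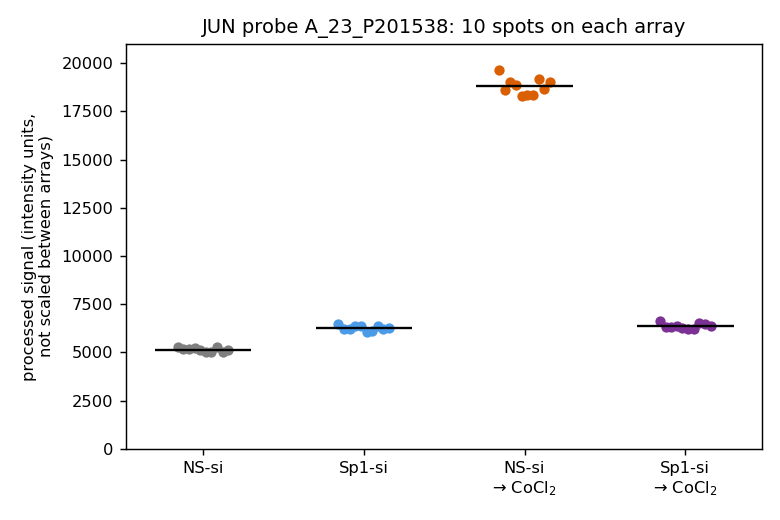
Processed signal of the 10 spots of the JUN probe on each of the 4 arrays, in intensity units before scaling, with a line at the geometric mean. The NS-si → CoCl2 spots lie between 18285 and 19627, and the spots of the other arrays lie between 5004 and 6634.

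After scaling, CoCl2 raised JUN 4.28-fold in NS-si cells, and the spots gave log2 ratios from 2.06 to 2.12. In Sp1-si cells the log2 CoCl2 ratio was -0.20 ± 0.02 (SD, 10 spots), which turned to 0.02 without scaling. The difference of the ratios, Sp1-si minus NS-si, was therefore -2.30 ± 0.01. Of 30234 probes well above background on all 4 arrays, 20 (0.0662%) had a lower difference. Among 1210 such probes that CoCl2 raised at least 2-fold in NS-si cells, 116 (9.59%) were at or below 0 in Sp1-si cells, and JUN was the sole one of the 12 raised member probes in that position. The order of the scaled levels was NS-si, Sp1-si → CoCl2, Sp1-si and NS-si → CoCl2. The first and the second differed by 0.14, more than the spread between spots, but the middle levels changed places without scaling.

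JUNB, a JUN protein that often restrains JUN itself, behaved otherwise. Its brighter probe, A_23_P4821, read 5157 in NS-si and 5474 in untreated Sp1-si cells, and 13851 and 21751 in the same cells with CoCl2. Both treated arrays were above both untreated ones, and Sp1-si → CoCl2 was the highest. The log2 CoCl2 ratio was 1.65 ± 0.03 in NS-si cells and 1.76 ± 0.03 after Sp1 silencing. The dimmer probe A_24_P241815 read 102, 106, 331 and 607 in the same order, and its ratios were 1.93 ± 0.07 and 2.29 ± 0.08. The difference of the CoCl2 ratios, Sp1-si minus NS-si, was 0.11 ± 0.03 by the first probe and 0.36 ± 0.11 by the second. The probes thus differed by 0.28 in NS-si cells and 0.53 after Sp1 silencing but ran in the same direction. Without CoCl2, the JUNB level in Sp1-si cells was within 0.14 of that in NS-si cells for either probe.

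FOS, the prototype of the FOS proteins and a partner of JUN, was raised in both cell states and most in Sp1-si cells. Its signal was 296 in NS-si and 299 in untreated Sp1-si cells, and 777 and 2163 in the same cells with CoCl2. The untreated arrays differed by 0.07 on the log2 scale, against an SD of 0.04. CoCl2 raised FOS 3.07-fold in NS-si cells and 6.17-fold after Sp1 silencing, so that the log2 ratios of 1.62 and 2.63 differed by 1.01 ± 0.05. This difference and that of JUN had opposite signs. The FOS difference just passed the 2-fold limit and was 0.97 after another background correction.

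FOSB, a close relative of FOS and also an immediate early gene, was the other member with a smaller CoCl2 ratio in Sp1-si cells under every processing setting. It read 101 in NS-si and 135 in untreated Sp1-si cells, and 295 and 328 in the same cells with CoCl2. Both treated arrays were above both untreated arrays. The log2 CoCl2 ratio was 1.77 ± 0.07 in NS-si cells and 1.05 ± 0.08 after Sp1 silencing, a difference of -0.72 ± 0.11 that shrank to -0.27 without scaling. This difference was within the 2-fold limit, and 9.47% of all probes well above background on all 4 arrays had a lower one. The Sp1-si ratio was below the 2-fold limit at 0.79 with the other background correction and at 0.998 in the authors' value table.

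FOSL1 (FRA-1) and FOSL2 (FRA-2) lack the strong activation domain of FOS and accumulate later after a stimulus. The brighter FOSL1 probe, A_23_P161624, read 427 in NS-si and 285 in untreated Sp1-si cells, and 934 and 998 in the same cells with CoCl2. Both treated arrays were above both untreated ones. Its log2 CoCl2 ratios were 1.35 ± 0.04 in NS-si cells and 1.58 ± 0.04 after Sp1 silencing, and the second began from a lower level, at -0.53 ± 0.04 relative to NS-si cells. The dimmer probe A_23_P322519 read 84.2, 60.2, 225 and 246 in the same order, with log2 CoCl2 ratios of 1.64 ± 0.07 and 1.80 ± 0.08. With CoCl2 the ratio of Sp1-si to NS-si cells was -0.30 by A_23_P161624 and -0.27 by A_23_P322519, and both turned positive, to 0.10 and 0.13, without scaling.

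FOSL2 had 3 probes, which differed from each other by at most 0.18 in any of these quantities. The brightest, A_23_P218555, read 863 in NS-si and 659 in untreated Sp1-si cells, and 1723 and 2583 in the same cells with CoCl2. The others, A_23_P345581 and A_23_P348121, read 438, 332, 902 and 1258, and 304, 234, 626 and 837, in that order. All 3 gave the untreated Sp1-si array as the lowest and the Sp1-si → CoCl2 array as the highest. The log2 CoCl2 ratios of the 3 probes ran from 1.22 to 1.27 in NS-si cells and from 1.61 to 1.74 after Sp1 silencing, and the NS-si ratio of the brightest fell just short of 2-fold without scaling. FOSL2 without CoCl2 was lower in Sp1-si cells by all 3 probes, between -0.34 and -0.32. With CoCl2 it was between 0.02 and 0.19, and at 0.02 the treated arrays did not differ beyond the spread between spots (SD 0.04).

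ATF3, a stress-induced factor that represses or activates depending on its partner, was higher with CoCl2 in both cell states. The probe A_23_P34915 read 1601 in NS-si and 3297 in untreated Sp1-si cells, and 8770 and 19291 in the same cells with CoCl2. Each step up in this order was larger than the spread between spots. The log2 CoCl2 ratio was 2.68 ± 0.03 in NS-si cells and 2.32 ± 0.03 after Sp1 silencing, and without CoCl2 the level was higher in Sp1-si cells by 1.10 ± 0.02. The dimmer probe A_24_P33895 read 41.1, 60.2, 236 and 542 in the same order. Its log2 CoCl2 ratios were 2.75 ± 0.07 and 2.94 ± 0.08, or 1.82 and 2.18 with the other background correction, and its log2 ratio of Sp1-si to NS-si without CoCl2 was 0.61 ± 0.07, below the 2-fold limit. The difference of the log2 CoCl2 ratios was thus -0.36 ± 0.03 by the first probe and 0.20 ± 0.11 by the second, and the first turned to 0.10 without scaling, so the probes give no shared direction. Relative to NS-si cells, the level in Sp1-si → CoCl2 cells was higher by 3.42 and 3.55 on the log2 scale.

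ATF2, a partner of JUN that is mainly controlled by phosphorylation, was set apart by Sp1 silencing rather than by CoCl2. Its probe A_24_P246467 read 114 in NS-si and 294 in untreated Sp1-si cells, and 83.9 and 372 in the same cells with CoCl2. Both Sp1-si arrays were above both NS-si arrays, and the log2 ratio of Sp1-si to NS-si was 1.42 ± 0.07 without and 1.75 ± 0.08 with CoCl2. The dim probe A_24_P128145 read 45.4, 87.8, 35.8 and 79.1, with ratios of 1.01 and 0.75 that dropped to 0.51 and 0.17 with the other background correction. The CoCl2 ratios of both probes stayed between -0.38 and 0.11. Their difference, Sp1-si minus NS-si, was 0.33 ± 0.11 by A_24_P246467 and -0.26 ± 0.11 by A_24_P128145.

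BATF3, a bZIP factor best known from dendritic cells that pairs with JUN proteins, had 1 dim probe. Its signal was 180 in NS-si and 71.9 in untreated Sp1-si cells, and 116 and 147 in the same cells with CoCl2. Sp1-si was the lowest array and NS-si the highest. The log2 ratio of Sp1-si to NS-si was -1.27 ± 0.07 without CoCl2 and -0.06 ± 0.08 with it, the latter within the spread between spots and positive without scaling. The former was -0.86, within the 2-fold limit, with the other background correction. The log2 CoCl2 ratios were -0.41 ± 0.07 in NS-si cells and 0.80 ± 0.08 after Sp1 silencing, a difference of 1.21 ± 0.11 that was 0.70 with the other background correction.

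**Figure D2:**
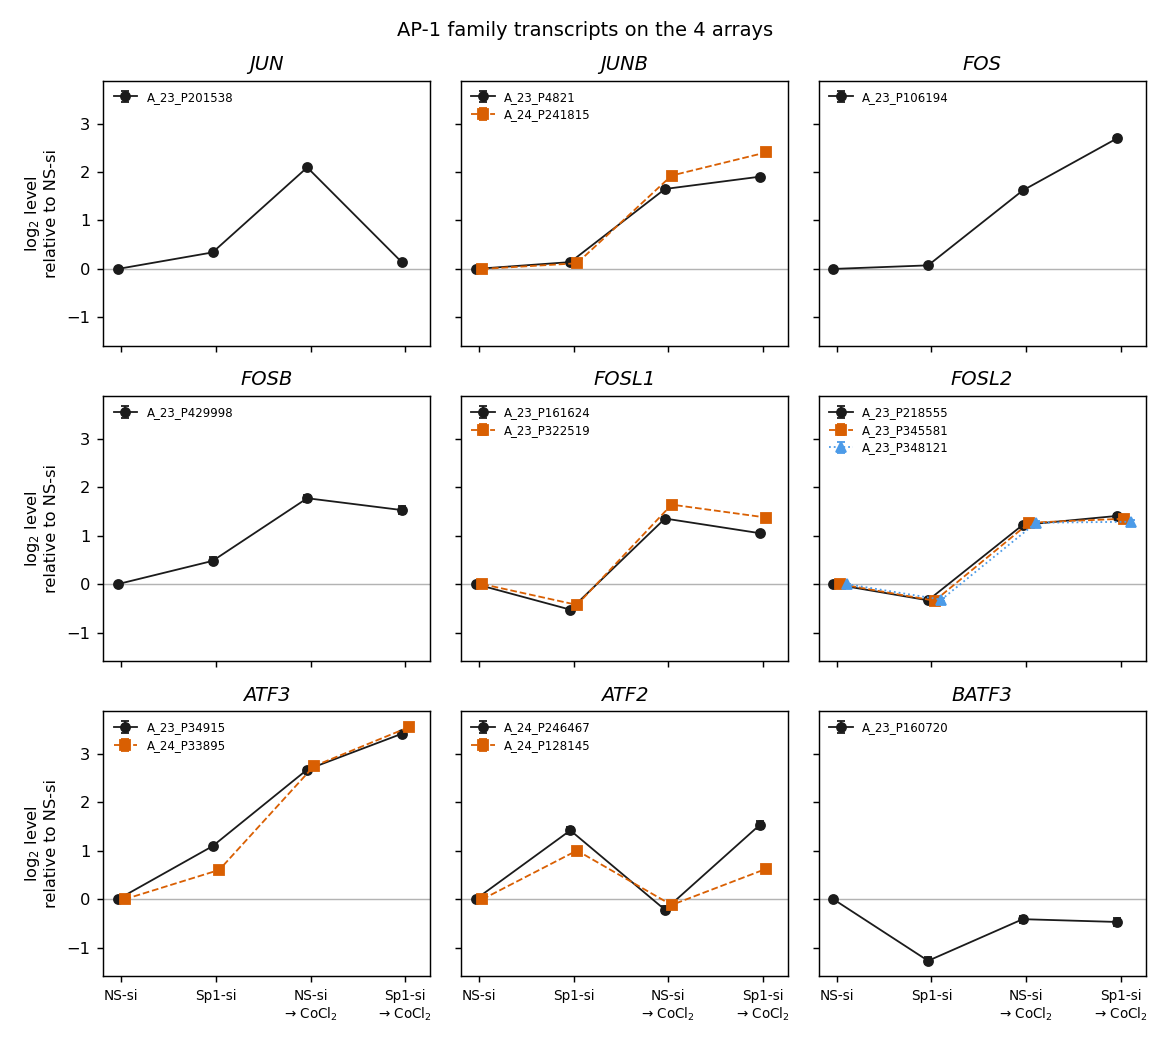
Scaled log2 level of each member probe on the 4 arrays relative to the NS-si array, 1 panel per gene and 1 line per probe. Bars show the technical SD of the ratio to NS-si, except on Sp1-si → CoCl2, where they show that of the ratio to NS-si → CoCl2. JUN peaks at 2.10 in NS-si → CoCl2 and returns to 0.14 in Sp1-si → CoCl2, ATF3 reaches 3.42 and 3.55 there, and ATF2 is high on the Sp1-si arrays.

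Taking the family as a whole, CoCl2 raised most members in either cell state. At a limit of 2-fold, a log2 ratio of 1, 12 of 15 probes from 7 of 9 genes were raised in NS-si cells, where 4.54% of all probes were, and 0 were lowered, against 4.34%. The genes were JUN, JUNB, FOS, FOSB, FOSL1, FOSL2 and ATF3. In Sp1-si cells 11 probes from 6 genes were raised, against 3.68% of all probes, JUN being the gene that dropped out, and 0 were lowered, against 6.22%. The median log2 CoCl2 ratio over the member probes was 1.62 in NS-si cells and 1.69 after Sp1 silencing, and over all probes it was 0.02 and -0.03. Probes of 1 gene share their transcript and are not independent.

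Sp1 silencing itself moved fewer members. Without CoCl2, 3 probes were past the limit upwards, both ATF2 probes and the brighter ATF3 probe, against 5.51% of all probes, and 1 downwards, that of BATF3, against 5.86%, or 0 with the other background correction. With CoCl2, FOS and ATF2 (A_24_P246467) were past it upwards, against 6.29% of all probes, and JUN downwards at -1.96 ± 0.02, against 9.7%. The medians over member probes were 0.12 and 0.19, and over all probes -0.01 and -0.08. The difference of the CoCl2 ratios was past the limit for FOS and BATF3 upwards (1.04% of all probes) and for JUN downwards (4.9%). The 4 ratios share arrays, so that they are not separate measurements.

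**Figure D3:**
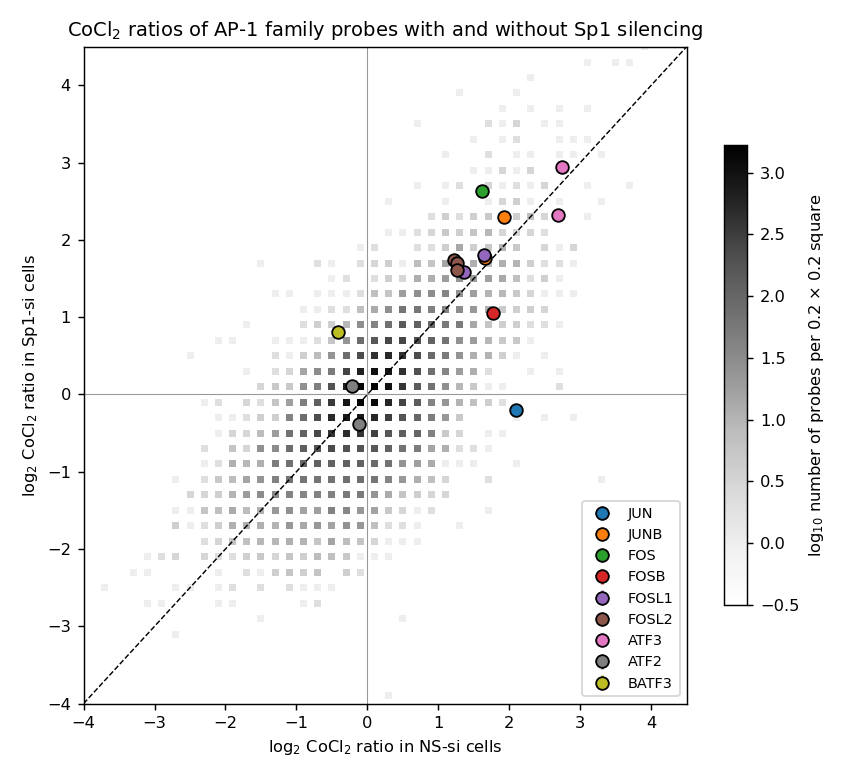
Log2 CoCl2 ratio in NS-si cells (x axis) against that in Sp1-si cells (y axis) for the 15 member probes, with bars for the technical SD where wider than the point, over the density of all 30234 probes well above background on all 4 arrays (grey squares, log scale). JUN lies at 2.10 and -0.20, far below the dashed line of equal ratios, while FOS lies above it at 1.62 and 2.63.

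The genes whose levels over the 4 arrays most resembled those of each member were found by the Euclidean distance of mean-centred log2 levels, over 4 arrays and with no test. For JUN they were LAMP5 (0.36), YPEL2 (0.41) and TDRD10 (0.43), all with dim probes between 9.34 and 96.0. The nearest to FOS were MT1B (0.31), a metallothionein, CRYBG3 (0.31) and ZFP36 (0.36), an immediate early gene for a protein that destabilises mRNAs. ATF3 (A_23_P34915) was nearest to ACTN2 (0.33), PIM1 (0.43) and NDRG1 (0.55). FOSL2 (A_23_P218555) was nearest to SAMTOR (0.03), DLX2 (0.06) and the glycolytic gene PGK1 (0.11), and FOSB to ZNF296 (0.15), PFKFB3 (0.16) and CTDP1 (0.17).

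Genes around AP-1 were read from 5 lists, with 1 probe per gene. The first holds 22 partners and related bZIP factors. CoCl2 raised 4 and lowered 1 of the 20 tested in NS-si cells (4.24% and 3.57% over all genes by 1 probe each), and the median log2 ratio was 0.36, against 0.00 over all genes. The raised genes were MAFF at 2.80, CEBPB at 1.51, MAFK at 1.48 and, named after its value was seen, MAFG at 1.38. The small MAF proteins lack an activation domain and pair with CNC factors as well as FOS. The lowered gene was BATF2, at -1.29, and at -0.58 with the other background correction. In Sp1-si cells 3 of 21 were raised and 0 lowered (3.68% and 4.07% over all genes), led by CEBPB at 2.11, and MAFF was at 1.70. MAFF was the one gene of the list with a difference of the ratios past the limit, at -1.09 ± 0.04, and it came to -0.64 without scaling. JDP2, which binds JUN and represses AP-1 sites, read 2532 in NS-si and 600 in untreated Sp1-si cells, and 3174 and 626 in the same cells with CoCl2. Its ratio of Sp1-si to NS-si was -2.02 without and -2.74 with CoCl2, which made it the one gene of the list past the limit downwards in either comparison (6.21% and 8.08% over all genes). Upwards were BATF2, at 1.49 without and 1.91 with CoCl2, the second being 0.96 with the other background correction, and CEBPD, at 1.09 without (6.29% and 7.21% over all genes).

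Kinases upstream of JUN and ATF2 form the second list, with 17 of 18 genes measured, MAPK8 (JNK1) not among them. CoCl2 raised 2 and lowered 1 in NS-si cells and raised 2 and lowered 2 in Sp1-si cells, with median log2 ratios of 0.16 and 0.15, beside shares over all genes of 4.24% and 3.57% in NS-si and of 3.68% and 4.07% in Sp1-si cells. Raised were MAPK7 (ERK5), at 2.12 in NS-si cells and 2.04 after Sp1 silencing, and MAP2K1 (MEK1), at 1.18 and 1.25, the first being 0.96 without scaling. MAP2K6, which activates p38, was lowered in both, at -1.20 and -1.14, which came to -0.97 and -0.82 with the other background correction. MAP3K1, an activator of the JNK pathway, read 138, 236, 123 and 133 over NS-si, Sp1-si, NS-si → CoCl2 and Sp1-si → CoCl2 cells, and its log2 CoCl2 ratio was 0.06 in NS-si cells and -1.06 after Sp1 silencing, or -0.83 there without scaling. Its difference of -1.12 ± 0.11 was the one past the limit among 16 kinases tested, where 2.89% of all genes were, and it came to -0.66 without scaling. MAPK3 (ERK1) was higher in Sp1-si cells, by 1.77 without and 2.35 with CoCl2. The array measured transcripts and not the phosphorylation by which these kinases act.

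Of the 13 transcription factors that act on the FOS and JUN promoters, 0 were past the limit with CoCl2 in either cell state and 0 in the difference, and the median log2 CoCl2 ratios were 0.24 in NS-si cells and 0.17 after Sp1 silencing. Without scaling, 1 was past it in each cell state. With 4.24% and 3.57% of all genes past the limit upwards and downwards in NS-si cells, and 3.68% and 4.07% in Sp1-si cells, 0 of 13 is near the share over all genes, as it is for the difference, where 0.973% and 2.89% were. Without CoCl2, SP3, the relative of Sp1 that binds the same GC boxes, was higher in Sp1-si cells by 1.22 ± 0.03, its signals being 1586 for NS-si and 3563 for Sp1-si cells, and ELK3 was higher by 1.01 ± 0.07, or 0.73 with the other background correction. Among the 12 regulators of JUN and FOS protein, DUSP1, a phosphatase of JNK and p38 and itself an immediate early gene, was raised by CoCl2, at 1.98 in NS-si cells and 1.92 after Sp1 silencing. USP28, a deubiquitinase, was just past the limit in Sp1-si cells, but at 0.53 with the other background correction, and its ratio in NS-si cells was 0.07. DET1, part of a ubiquitin ligase for JUN, was higher in Sp1-si cells by 1.19 without and 1.04 with CoCl2.

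The last list holds 30 genes known as AP-1 targets, and these did not move as a block. CoCl2 raised 6 and lowered 1 of 26 in NS-si cells, where 4.24% and 3.57% of all genes were. In Sp1-si cells it raised 7 and lowered 3 of 28, where 3.68% and 4.07% of all genes were. The number raised in Sp1-si cells ranged over the settings from 4 with the other background correction to 8 without scaling. The median log2 ratio was 0.20 in NS-si cells and 0.33 after Sp1 silencing. Without scaling, the NS-si medians of the kinases, the protein regulators and the targets turned to -0.06, -0.21 and -0.03, where that of all probes was -0.21. Among those raised in NS-si cells were PLAUR, the urokinase receptor, at 1.93 and CXCL8 (interleukin-8) at 1.88 ± 0.31. In Sp1-si cells MMP13 and S100A8, well above background on the Sp1-si → CoCl2 array alone, were higher by at least 2.66 and 2.34 on the log2 scale. For these dim probes the other background correction gave 0.62 for CXCL8 in NS-si cells, and 0.52 and 0.41 for MMP13 and S100A8. IL6 was lowered in both, at -1.15 and -1.66, the first being -0.99 with the other background correction.

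With Sp1 silencing, targets lay past the limit in both directions. The collagenase MMP1 read 487 in NS-si and 6266 in untreated Sp1-si cells, and 1282 and 9840 in the same cells with CoCl2, so that it was higher in Sp1-si cells by 3.74 ± 0.02 without and 2.54 ± 0.03 with CoCl2. COL1A2, a collagen chain, ran the other way, at -3.10 and -2.92, with signals of 8.69 and 11.7 on the Sp1-si arrays, and the first was -0.96 with the other background correction. Without CoCl2, 3 of 26 targets were past the limit upwards and 5 downwards, where 6.29% and 6.21% of all genes were. With CoCl2, 5 of 28 were upwards and 4 downwards, where 7.21% and 8.08% of all genes were. The difference of the CoCl2 ratios was past the limit downwards for EREG at -1.23 ± 0.04, CXCL8 at -1.21 ± 0.48 and MMP1 at -1.20 ± 0.04, and for 0 of 25 upwards, against 2.89% and 0.973% of all genes. Without scaling, 0 of the 25 were past it downwards, with EREG at -0.78 and MMP1 at -0.75.

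**Figure D4:**
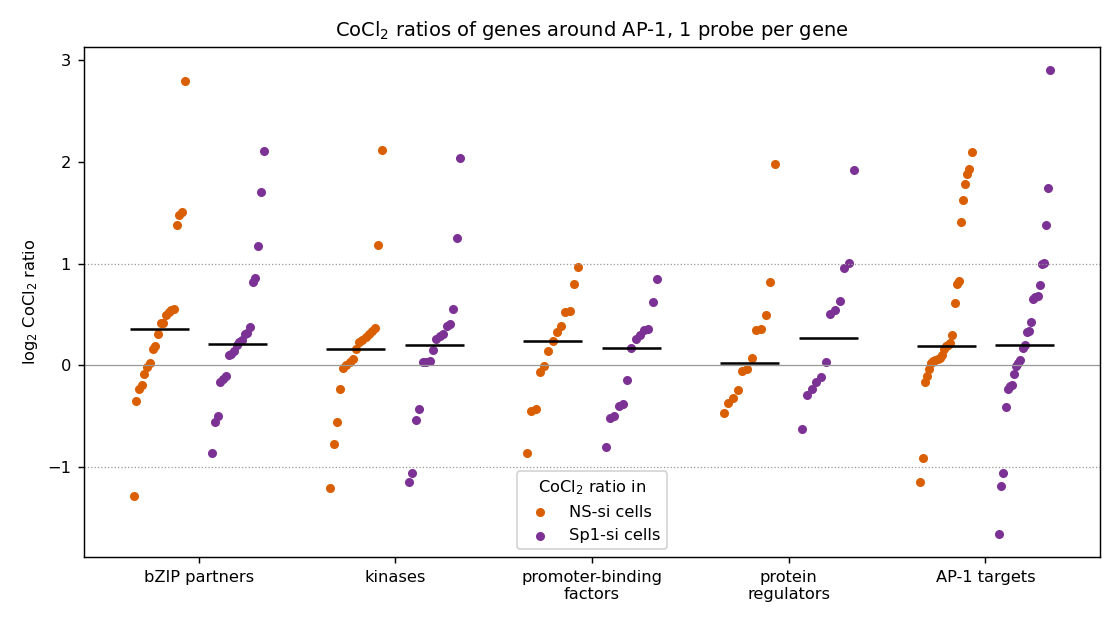
Log2 CoCl2 ratio of each measured gene of the 5 lists in NS-si cells (orange) and Sp1-si cells (purple), 1 point per gene in order of size, with a line at the median of the measured ratios, bounds left out, and dotted lines at the 2-fold limit. MAFF reaches 2.80 among the bZIP partners in NS-si cells and CEBPB 2.11 in Sp1-si cells, and no gene of the 13 promoter-binding factors passes the limit in these scaled values.

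The differences of the CoCl2 ratios were then compared across settings. Without scaling, the median ratio of all probes moved to -0.21 for CoCl2 in NS-si cells, 0.20 for CoCl2 in Sp1-si cells and 0.32 for Sp1-si to NS-si with CoCl2, and that of the difference to 0.44. Scaling to the median of each array moved the last 3 to 0.08, 0.03 and 0.08. Under every setting tried, the difference was negative for JUN and FOSB and positive for both JUNB probes, FOS, all 3 FOSL2 probes and BATF3. The brighter ATF3 probe, the dim ATF2 probe and the dim FOSL1 probe changed sign under 1 setting each.

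**Figure D5:**
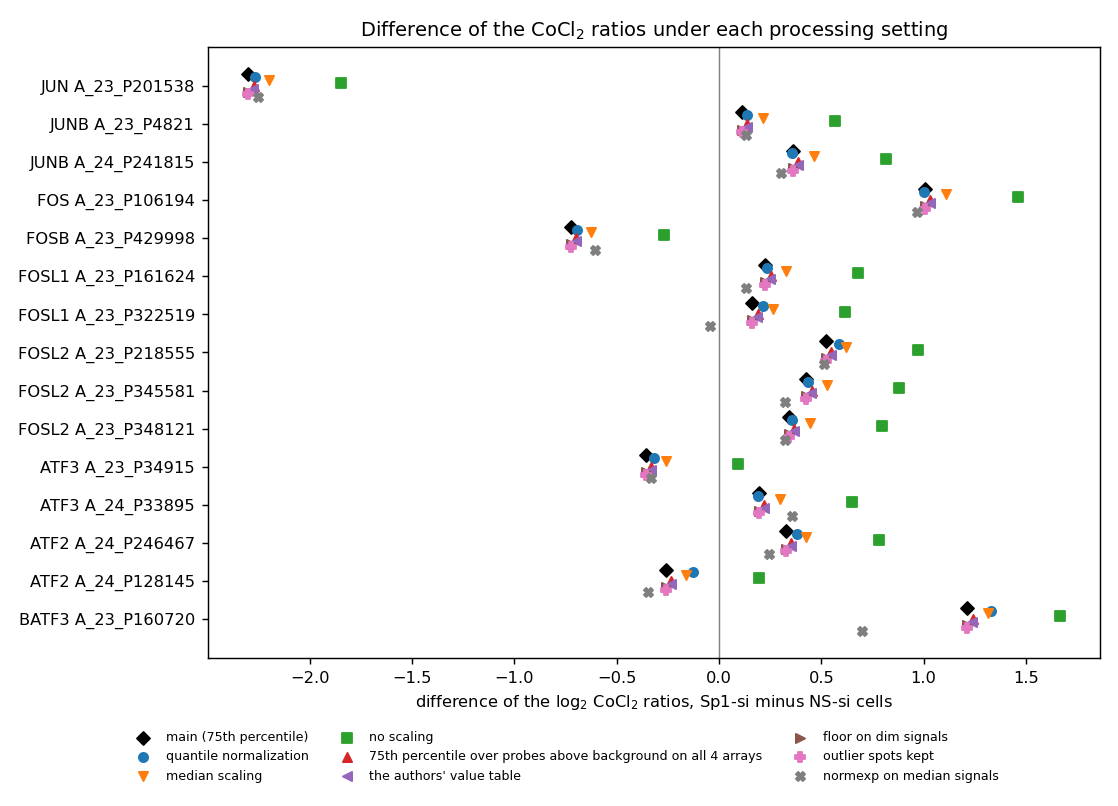
Difference of the log2 CoCl2 ratios, Sp1-si minus NS-si cells, for the 15 member probes (rows) under the main setting (black diamonds) and 8 alternatives (other symbols). JUN stays between -2.30 and -1.85, left of all other probes, and the unscaled values (green squares) lie to the right of the others.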

How the data were processed

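Total RNA of OVSAYO cells was measured on 4 one-colour Agilent whole human genome arrays, 1 per condition. The authors deposited spot intensities from Agilent Feature Extraction 10.5.1.1, background-subtracted and detrended but not normalized between arrays, and the authors' deposited value table equals the processed intensity times 1 constant per array. Member genes and all gene lists were chosen with earlier results of these data known.

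Here, outlier and control spots were left out, log2 processed signals were set relative to the 75th percentile of the array, and averaged over the spots of each probe. A probe was well above background when at least 50% of its spots were. A log2 ratio is the difference of such values between arrays. Where only 1 side was well above background, the dim side took the array's lowest well-above-background signal, or its own if higher, and the ratio is a bound. Counts cover probes well above background on at least 1 array of a pair, or on all 4 for the difference of the ratios. With 1 array per condition, no test was run. Symbols came from RefSeq accessions, and 28463 of the 29877 spots carrying one were matched. The array annotation is on an older build than the promoter windows, which served for sequence only, and 7 of the 10 members had a window.

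Named are all members, SP1, the 3 nearest genes of a member, and at most the 3 highest and 3 lowest genes per list and comparison, each list gene by its brightest probe on average. The counting was tested on simulated data for the CoCl2 ratio in NS-si cells, where 200 of 200 probes changed 4-fold were recovered among 30240. The change was far above the simulated noise and these probes lay above background on all 4 arrays, so recovery was nearly fixed in advance. Bounds for dim probes were not exercised. As alternatives, the arrays were left unscaled, scaled to their medians, quantile normalized, or scaled by a percentile restricted to probes above background on every array. Others were the deposited value table, flooring of dim signals, keeping outlier spots, a 1.5-fold limit, probes well above background on all 4 arrays, 1 probe per gene, and, chosen after the files were seen, a normexp correction with an offset of 50 on median signals, called the other background correction in the report. Python 3.11.15, numpy 2.4.6, pandas 2.3.3, matplotlib 3.10.9, R 4.3.3 and limma 3.58.1 were used. Some results are not reported here.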

Additional observations from a re-analysis of the deposited data

Results flagged for a closer look

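Several members had ratios of opposite sign in the compared states, on 1 array each, and none of these differences was tested. For JUN (A_23_P201538) the CoCl2 ratio was above 0 in NS-si and below 0 in Sp1-si cells, and the Sp1-si to NS-si ratio was above 0 without and below 0 with CoCl2, which is 1 difference of -2.30 seen from both sides. The sign in Sp1-si cells depended on the scaling.

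Relative to NS-si cells, FOSB in Sp1-si cells was higher without CoCl2 and lower with it, a difference of -0.72, and its ratio with CoCl2 was positive without scaling. FOSL2 was lower in Sp1-si cells without CoCl2 and higher with it by the probes A_23_P218555 and A_23_P345581, with differences of 0.52 and 0.43. For ATF2 (A_24_P246467) the CoCl2 ratio was below 0 in NS-si and above 0 in Sp1-si cells, a difference of 0.33. By the other ATF2 probe, A_24_P128145, both ratios were below 0 and the difference was -0.26, so the probes give no shared direction. The BATF3 ratio was likewise below 0 in NS-si and above 0 in Sp1-si cells, with a difference of 1.21.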

How the results depend on the processing

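Of 33 member ratios past the 2-fold limit, all 33 kept their sign under the 8 alternatives and 27 stayed past the limit under each of them. Unscaled arrays, median scaling, the restricted percentile and the deposited value table shift all ratios of a comparison by 1 constant, smaller than the limit. Signs past the limit could thus not change there, and flooring leaves probes above background as they are. Of 42 ratios within the limit, 9 changed sign under at least 1 alternative. The difference of the CoCl2 ratios of JUN was -2.26 with quantile normalization, -2.20 with median scaling, -1.85 without scaling, -2.27 with a percentile restricted to probes above background on every array, -2.27 in the authors' value table and -2.25 with the normexp correction. With 1 probe per gene the raised probes numbered 7 in NS-si cells and 6 after Sp1 silencing, where 4.24% and 3.68% of all genes were raised. With CoCl2, member probes higher in Sp1-si cells numbered 5 without scaling and 5 at a 1.5-fold limit, those of FOS, ATF3 and ATF2 in both, and those with a lower CoCl2 ratio in Sp1-si cells numbered 2 at that limit. Without scaling the median of all probes for Sp1-si to NS-si with CoCl2 was itself 0.32, and a 1.5-fold limit also passes more of all probes. Shares of all probes at these settings are not given, so these counts are not a result about the members. The normexp correction left 0 member probes lower in Sp1-si cells without CoCl2 and 0 with a higher CoCl2 ratio there, since BATF3 came to -0.86 in the first, and FOS to 0.97 and BATF3 to 0.70 in the second. Of the 68 list ratios past the limit, 0 changed sign and 43 stayed past it under each alternative. The same limit on the sign check applies to the list ratios. The causes of these shifts were not tested.

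The normexp correction planned on mean spot signals was not run, because the files used here hold median spot signals and no mean. No paired analysis was possible because each condition has 1 array. For dim probes the technical SD was the limit. It was 0.31 for the CoCl2 ratio in NS-si cells among the 53 dimmest 10-spot probes and 0.03 among the 53 brightest.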
